A study of Mus musculus with 27 samples.

Results

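The laminin chains are 9 genes, Lama1, Lama2, Lama3, Lama4, Lama5, Lamb1, Lamb2, Lamb3 and Lamc1, out of 54532 gene rows in a count table of mouse thyroid. They were chosen by name and found by their Ensembl identifiers, and all 9 were in the table. RNA came from pieces of thyroid isolated by laser capture microdissection, a way to cut selected areas from a tissue section under the microscope, and was read at the 3′ end of polyadenylated transcripts (QuantSeq). The 27 libraries fell into 3 groups of 9. NCT was normal thyroid of mice that were not exposed, NT was normal thyroid of exposed mice that had histologic lesions beside it, and PL was the proliferative lesions of those same mice, so that NT and PL were paired by mouse. The series title names radiation as the exposure. The strain, dose, age and interval after exposure were not stated in the sources used here. Each group held 6 females and 3 males, and mice are numbered here from 1 to 9 within NCT and within the pairs.

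Laminins are large secreted proteins, each built of an alpha, a beta and a gamma chain that coil around each other. They assemble into a sheet that starts the basement membrane, the thin matrix on which each thyroid follicle and each capillary rests, and they hold cells to it through integrins and dystroglycan. The alpha chain sets most of the receptor binding and differs between tissues, while the gamma chain encoded by Lamc1 is shared by most laminins.

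Libraries held 2923851 to 14148601 counts and 17180 to 21213 genes with a count. Levels are CPM, counts relative to library size, scaled with TMM factors over all 27 libraries, and they are compared between libraries for the same gene. The thyroid label matched the data, since Tg, the thyroglobulin gene, was at 9455 CPM or more in every library. In 5 libraries (NCT 5, NCT 8, NT 7, NT 9 and PL 2) the parathyroid hormone gene Pth exceeded 2000 CPM, and in NCT 9 the gastric lipase gene Lipf did, so each main result was also fitted without them. Markers of other tissues differed between the groups. In PL against NT, 5 of 6 C cell genes and 4 of 10 airway and squamous genes were lower, and none was higher. These are pieces of tissue, so fewer cells of a type and less RNA per cell cannot be told apart. The quasi-likelihood F test of edgeR with Benjamini-Hochberg adjustment over all genes tested gave the fold changes, and a gene was called at an adjusted p under 0.05.

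In lesions, Lama5 was higher than in the normal tissue of the same mouse. It was 1 of 8 laminin chains called in PL against NT, where 3.08% of 14461 genes were called, 1.76% higher and 1.31% lower. Against thyroid of non-exposed mice, Lama5 and Lamc1 were higher in lesions and Lama2 was lower, 3 of 8 chains, where 10.1% of 14234 genes were called, 5.46% higher and 4.62% lower. In NT against NCT, 0 of 8 chains and 0.0277% of 14447 genes were called, 0.00692% higher and 0.0208% lower, and DESeq2 and limma-voom also called 0 of the chains. The beta chains, Lama3 and Lama4 were not called in any comparison, and Lama1 was left out of every test by the filter on low counts.

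At an unadjusted p under 0.05 the chains numbered 2 of 8 in PL against NT, 3 of 8 in PL against NCT and 1 of 8 in NT against NCT, beside 17.6%, 23.6% and 11.6% of all genes. With 8 chains tested, these shares are coarse and no comparison of the list with all genes was made. The median log2 fold change of the 8 chains was -0.11 in PL against NT, where that of all genes was 0.0025, -0.09 in PL against NCT (0.0039) and 0.05 in NT against NCT (0.01).

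**Figure D1:**
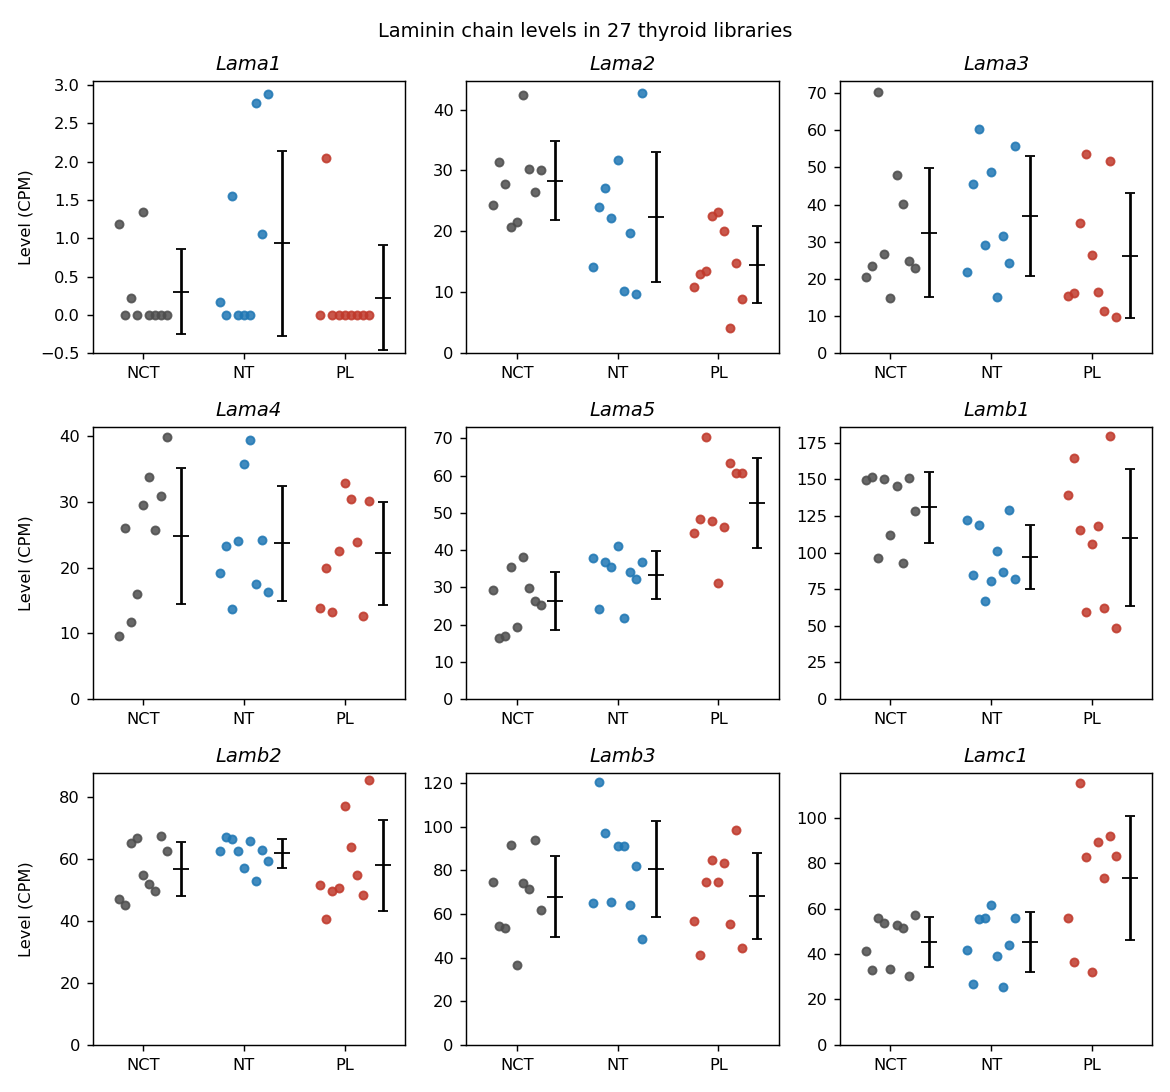
Level of each laminin chain in CPM (vertical axis, from 0 except for Lama1, where points at 0 are raised off the frame) in the 9 NCT, 9 NT and 9 PL libraries; points are libraries and bars are mean ± SD. Lama5 lies between 31.1 and 70.4 CPM in PL and between 16.3 and 38.2 CPM in NCT, and the ranges of the groups overlap for every chain.

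Lama5 encodes the alpha chain of the laminins found under most adult epithelia and in mature capillaries. It lies on chromosome 2 from 180176373 to 180225859 on the minus strand (GRCm38, GENCODE M21). In NCT the lowest, median and highest Lama5 level were 16.3, 26.4 and 38.2 CPM, in NT 21.6, 35.4 and 41.2 CPM, and in PL 31.1, 48.4 and 70.4 CPM. The order of the levels was NCT, NT, PL, with overlap at each step, and the PL library of mouse 5 was the only lesion below the highest NCT and NT libraries. Group means were 26.3 ± 7.79, 33.4 ± 6.45 and 52.6 ± 12.1 CPM (SD, n = 9 each).

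Within mice, Lama5 rose by 0.66 ± 0.15 on the log2 scale (SE, 95% interval 0.36 to 0.96), 1.58-fold, in PL against NT, with an adjusted p of 0.0333 by edgeR with Benjamini-Hochberg adjustment. It was higher in the lesion of 8 of the 9 mice, and in mouse 5 it was lower, 31.1 CPM in PL and 41.2 CPM in NT. Against NCT, Lama5 in PL was higher by 0.99 ± 0.18 (SE), 1.98-fold, with an adjusted p of 0.000967, and 9 of 9 PL libraries lay above the NCT median. Between NT and NCT the fitted difference was 0.33 ± 0.17 (SE) with an adjusted p of 0.454, which is no call. These comparisons share libraries and are not independent of each other. The 8 thyroid follicular genes, markers of the epithelium itself, summed to 27269 to 61982 CPM in NCT, 13599 to 41604 CPM in NT and 12157 to 36030 CPM in PL, and Tg made up 77.8 to 96.8% of that sum. Without Tg, the other 7 summed to 1248 to 2289 CPM in NCT, 1067 to 2590 CPM in NT and 2108 to 3394 CPM in PL. Of the 8, Tshr was called higher in PL against NT and none lower, and the calls in PL against NCT included Tshr and Epcam, which were higher, and Tg, which was lower. Their part in the Lama5 result was not tested.

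The call of Lama5 within mice was close to the threshold. It was lost in 7 of 9 fits that left out 1 mouse (mouse 2, 3, 4, 6, 7, 8 or 9), with log2 fold changes of 0.60 to 0.68 and adjusted p from 0.0558 to 0.0889, and it was also lost without mice 2, 7 and 9, whose pairs hold a library rich in Pth (0.55, adjusted p = 0.262), and in females only (0.54, adjusted p = 0.333). The call against NCT held in all 28 alternatives, with log2 fold changes of 0.88 to 1.08.

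RefSeq promoters of GRCm38.p6 were matched for 5 of the 9 chains: Lama2, Lama5, Lamb1, Lamb2 and Lamb3. Lama3 was left out of this matching, so its absence here does not mean that RefSeq holds no promoter for it. The 250 bases before the start are shown for Lama5 and Lama2, the alpha chains called in opposite directions in PL against NCT, at chr2:180225860-180226109 and chr10:27616943-27617192, both on the minus strand. Capitals mark the GC box GGGCGG on either strand, a short element that Sp-family factors can bind.
Lama5: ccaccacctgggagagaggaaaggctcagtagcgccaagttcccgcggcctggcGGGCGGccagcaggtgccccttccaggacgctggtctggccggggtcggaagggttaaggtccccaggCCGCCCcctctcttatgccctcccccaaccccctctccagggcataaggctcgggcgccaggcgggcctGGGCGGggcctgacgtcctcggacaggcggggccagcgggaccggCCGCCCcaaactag
Lama2: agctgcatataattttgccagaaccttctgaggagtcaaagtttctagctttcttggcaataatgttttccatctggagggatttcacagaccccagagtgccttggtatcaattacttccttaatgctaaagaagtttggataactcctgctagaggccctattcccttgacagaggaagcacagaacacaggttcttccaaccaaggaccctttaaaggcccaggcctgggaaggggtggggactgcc
The Lama5 window was 72.4% G and C, above 93.6% of 32851 promoters, whose median was 52.4%, and it held 4 GC boxes. The Lama2 window was 47.2% G and C, above 31.1% of promoters, and held none. Of all promoters 32.7% had a GC box and 4.09% had 4 or more. Lamb1 had 2 matches, and Lamb2 and both starts of Lamb3 had none. Annotated exons of the same gene covered 59 of the 250 bases in Lamb1, 48 in Lamb2, and 1 and 171 in the Lamb3 windows. They covered 0 in Lama5 and Lama2. The AP-1 letters TGANTCA (6.75% of promoters) and the TATA box TATAAA (12.4%) matched in none of the 6 windows, and CAAGTG, the core of the thyroid factor NKX2-1 (11.6%), matched once in Lamb1 and once in 1 Lamb3 window. All motifs were read on both strands, and a match describes letters and not binding. The Lama2 start of RefSeq lies inside the longer gene of GENCODE, which spans 26980036 to 27619758.

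Lama2 encodes the alpha chain of the laminins of muscle fibres, Schwann cells and connective tissue cells, and moved the other way. Its levels were 20.7, 27.8 and 42.4 CPM (lowest, median, highest) in NCT, 9.67, 22.1 and 42.7 CPM in NT, and 4.07, 13.5 and 23.1 CPM in PL. The PL libraries reached into the lower part of NCT and, at 23.1 CPM, past the median of NT. The NT libraries spanned nearly the whole range seen. Means were 28.3 ± 6.48, 22.4 ± 10.7 and 14.5 ± 6.36 CPM (SD, n = 9 each).

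Compared with NCT, Lama2 in PL fell by 0.97 on the log2 scale (SE 0.24), with an adjusted p of 0.0106 by edgeR with Benjamini-Hochberg adjustment, and 9 of 9 PL libraries lay below the NCT median. This call held in 27 of 28 alternatives and was lost in females only (-0.73, adjusted p = 0.214). Within mice the PL against NT value was -0.60 ± 0.33 (SE) with an adjusted p of 0.373, lower in 6 of 9 mice. Over its 18 alternatives this value ranged from -0.79 to -0.04, with 0 calls, and from -0.79 to -0.38 with 1 mouse left out. Mice 7 and 9 had the lowest differences, from 19.7 to 4.07 CPM and from 42.7 to 8.97 CPM. Their NT libraries were rich in Pth, at 18049 and 25707 CPM, and the part of this in the difference was not tested. In mice 6 and 8 the lesion was higher, 20.1 against 10.2 CPM and 14.7 against 9.67 CPM. Between NT and NCT the value was -0.34 ± 0.23 (SE) with an adjusted p of 0.590.

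Some markers of connective tissue differed between PL and NCT, as Lama2 did, and others did not. Of the 8 fibroblast genes, 4 had positive and 4 negative values in PL against NCT (median -0.14). Dcn alone had a mean of 1246 CPM in NCT and 528 CPM in PL, where the sums had means of 2220 and 1540.5 CPM. Col1a1 was at 169 and 176 CPM and Col3a1 at 323 and 347 CPM. The sum was not taken without Dcn. The 8 fibroblast genes summed to 1797 to 2922 CPM in NCT, 1339 to 3582 CPM in NT and 599 to 3244 CPM in PL, and in PL against NCT 3 of them were called lower (Pdgfra, Dcn and Lum) and 1 higher (Fn1, fibronectin). After centring each group on its mean, log2 Lama2 and the log2 summed fibroblast level correlated at r = 0.83 over the 27 libraries, which share their depth and their dissection. The 7 Schwann cell genes summed to 229 to 633 CPM in NCT, 167 to 328 CPM in NT and 87.5 to 182 CPM in PL, and Sox10, their defining factor, was at 0 in 1 NCT and 2 PL libraries. S100b alone had a mean of 218 CPM in NCT and 58.7 CPM in PL, where the Schwann sums had means of 361 and 133 CPM. Of 6 tested Schwann genes, Mbp and S100b were lower in PL against NCT. The 8 skeletal muscle genes summed to 6.18 to 632 CPM in NCT and 4.56 to 603 CPM in PL, with none called. The 8 adipocyte genes summed to 608 to 5470 CPM in NCT, 349.8 to 1066 CPM in NT and 122 to 1473 CPM in PL. In PL against NCT all 7 tested had negative values (median -1.89) with an unadjusted p under 0.05, but none was called, and their summed level correlated with Lama2 at r = 0.56. The part of these cells in the Lama2 result was not tested. An annotated antisense RNA, Gm48084, overlaps 631 exon bases of Lama2, and the strand setting of the counting was not stated.

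Lama3, the alpha chain of the laminin that anchors epithelia at hemidesmosomes, varied widely from library to library. Its levels ran from 14.99 to 70.2 CPM in NCT (median 24.8), from 15.03 to 60.4 CPM in NT (median 31.6) and from 9.72 to 53.5 CPM in PL (median 16.6). The 3 groups overlapped almost throughout. The coefficient of variation was 53.7%, 43.5% and 64.2%. In PL against NT the value was -0.60 ± 0.36 (SE) with an adjusted p of 0.419, lower in 6 of 9 mice. It was -0.32 in PL against NCT (adjusted p = 0.662) and 0.18 in NT against NCT (adjusted p = 0.860). The PL against NT value ranged from -0.82 to -0.0095 over its 18 alternatives, and from -0.82 to -0.37 with 1 mouse left out. An antisense RNA, Gm29200, overlaps 197 exon bases of Lama3.

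Lama4, the alpha chain of vessel walls and mesenchyme, lay between 9.65 and 39.9 CPM in NCT, 13.6 and 39.4 CPM in NT and 12.7 and 32.9 CPM in PL. Means were 24.8 ± 10.3, 23.7 ± 8.70 and 22.2 ± 7.83 CPM (SD, n = 9 each), a spread far wider than their differences. The value in PL against NT was -0.09 (95% interval -0.43 to 0.24, adjusted p = 0.834), in PL against NCT -0.17 (-0.67 to 0.34) and in NT against NCT -0.07 (-0.57 to 0.43). The 10 endothelial genes, which mark the vessels where this chain is known, summed to 972 to 1372 CPM in NCT, 927 to 1714 CPM in NT and 769 to 1647 CPM in PL, and in PL against NT 0 of 10 were called although all 10 values were negative (5 at an unadjusted p under 0.05).

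Lama1, the alpha chain of the early embryo, was at the edge of detection. It was at 0 counts in 6 NCT libraries, 4 NT libraries and 8 PL libraries, and a count of 0 allows up to 3 counts, or 0.224 to 1.33 CPM in the 18 libraries at 0, covering counting error only. The most counts in a library of NCT were 11, of NT 29 and of PL 13. In each group the library with the highest Lama1 level was rich in Pth: NCT 5 at 1.34 CPM, NT 9 at 2.88 CPM and PL 2 at 2.04 CPM, with 4485, 25707 and 27396 CPM of Pth. NT 7, with 18049 CPM of Pth, had 2.76 CPM of Lama1, while NCT 8, with 2409 CPM of Pth, had 0 counts. Lama1 was also counted in libraries not rich in Pth: NT 3 had 1.55 CPM, NCT 1 had 1.19 CPM and NT 8 had 1.06 CPM, with 256, 602 and 40.9 CPM of Pth, and NCT 3 and NT 1 had 1 count each. The part of parathyroid tissue in these counts was not tested.

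**Figure D2:**
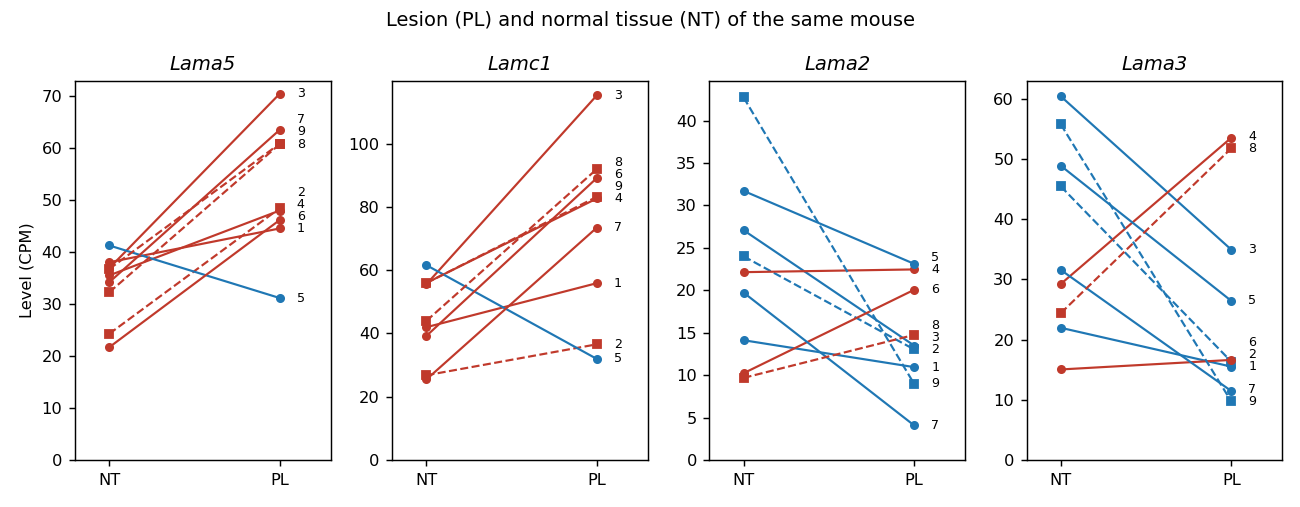
Level in CPM (vertical axis from 0) of Lama5, Lamc1, Lama2 and Lama3 in the NT and PL library of each mouse; lines join a mouse, numbers name it, red is higher and blue lower in PL, solid lines with circles are females and dashed lines with squares males. Lama5 and Lamc1 are higher in PL in 8 of 9 mice with mouse 5 as the exception, while Lama2 and Lama3 are lower in 6 of 9.

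Lamb1 encodes the beta chain most often joined to Lamc1 in epithelial and vascular laminins. Levels were 93.2, 145 and 152 CPM (lowest, median, highest) in NCT, 67.3, 86.8 and 129 CPM in NT, and 48.8, 116 and 179 CPM in PL. All 9 NT libraries lay below the NCT median, but the ranges overlapped, and the PL libraries were spread over both. In NT against NCT the value was -0.45 ± 0.13 (SE, unadjusted p = 0.0028), with an adjusted p of 0.207 by edgeR with Benjamini-Hochberg adjustment, so it was not called. Over its 28 alternatives it ranged from -0.51 to -0.39, with adjusted p from 0.104 to 0.551. In PL against NT it was 0.10 (95% interval -0.21 to 0.40), higher in 5 of 9 mice, and in PL against NCT -0.26 (-0.68 to 0.16).

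Lamb2, the beta chain of nerve-muscle junctions, kidney filters and vessels, had the lowest coefficient of variation of the tested chains in NT. It ran from 53.1 to 67.1 CPM there, from 45.2 to 67.4 CPM in NCT and from 40.5 to 85.7 CPM in PL. This coefficient was 7.52% in NT, 15.5% in NCT and 25.4% in PL. The fitted values were -0.12 in PL against NT (95% interval -0.37 to 0.14), 0.02 in PL against NCT (-0.26 to 0.29) and 0.11 in NT against NCT (-0.09 to 0.32).

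Lamb3, the beta partner of Lama3 at hemidesmosomes, had means of 68.0 ± 18.5 CPM in NCT, 80.5 ± 21.98 CPM in NT and 68.2 ± 19.7 CPM in PL (SD, n = 9 each). The groups overlapped, from 36.7 to 93.9, 48.6 to 121 and 41.0 to 98.4 CPM. The value was -0.23 ± 0.16 (SE, adjusted p = 0.481) in PL against NT, lower in 7 of 9 mice, and -0.01 in PL against NCT, and 0.23 (adjusted p = 0.623) in NT against NCT. Mouse 2 had the lowest difference, from 121 to 41.0 CPM, and its PL library was rich in Pth, at 27396 CPM. The part of this in the difference was not tested. Over its 18 alternatives the PL against NT value ranged from -0.31 to -0.05.

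Lamc1, the gamma chain common to most laminins, lies on chromosome 1 from 153218922 to 153332786 on the minus strand (GRCm38). Its levels were 30.1, 51.4 and 57.2 CPM (lowest, median, highest) in NCT, 25.4, 44.0 and 61.6 CPM in NT, and 31.9, 82.7 and 115 CPM in PL. Of the 9 lesions, 6 lay above every NCT and NT library, and 3 (mice 1, 2 and 5) lay among them. Means were 45.4 ± 10.95, 45.2 ± 13.2 and 73.4 ± 27.2 CPM (SD, n = 9 each), so the normal tissues had nearly the same mean and the lesions had the widest spread.

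Compared with NCT, Lamc1 in PL was higher by 0.68 ± 0.21 (SE), 1.61-fold, with an adjusted p of 0.0414 by edgeR with Benjamini-Hochberg adjustment. This call was kept in 14 of 28 alternatives, with values of 0.58 to 0.78. It was lost when NCT 1, 2, 5, 6 or 8 or PL 3, 4, 6, 7, 8 or 9 was left out (adjusted p from 0.0518 to 0.0842), in females only (0.75, adjusted p = 0.114), without the libraries rich in Pth or Lipf (0.70, adjusted p = 0.0651) and under limma-voom (0.60, adjusted p = 0.0653). Within mice the PL against NT value was 0.67 ± 0.20 (SE, 95% interval 0.28 to 1.07), 1.59-fold, higher in 8 of 9 mice, with an adjusted p of 0.0875. That is no call, and it became one without mouse 5 (0.86, adjusted p = 0.00837) and by the Wald test of DESeq2 (0.67, adjusted p = 0.0193). In mouse 5 the level was 61.6 CPM in NT and 31.9 CPM in PL. Between NT and NCT the value was -0.02 (95% interval -0.36 to 0.33).

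**Figure D3:**
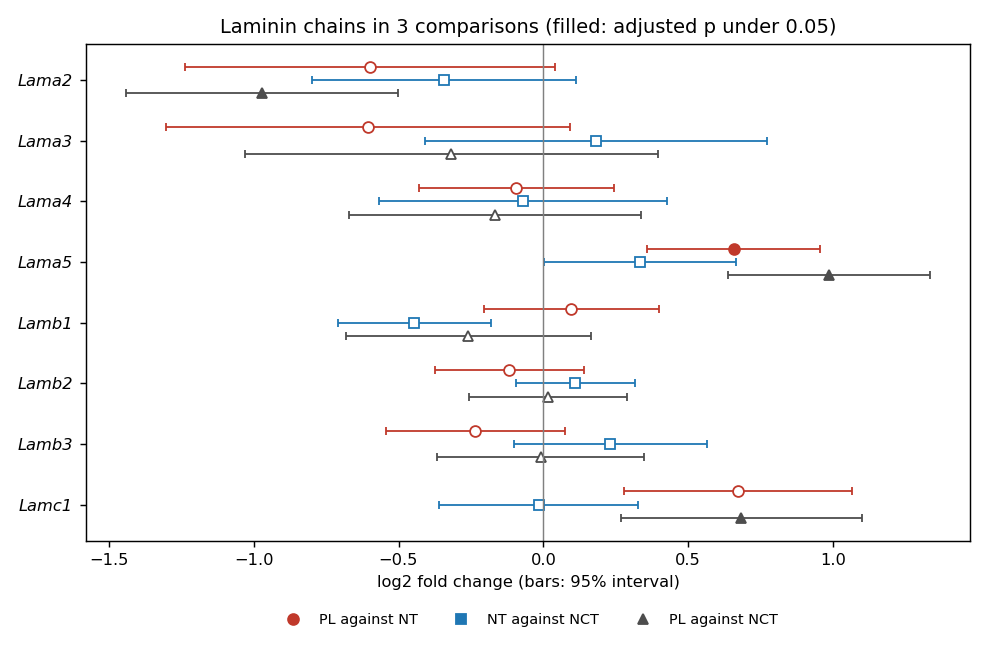
Fitted log2 fold change (horizontal axis) of the 8 tested laminin chains in PL against NT, NT against NCT and PL against NCT; bars are 95% intervals and filled symbols have an adjusted p under 0.05. Filled symbols are Lama5 in PL against NT, and Lama5, Lamc1 and Lama2 in PL against NCT, while no NT against NCT symbol is filled.

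Lama5 made up a larger share of the alpha chain counts in lesions than in the normal tissues, while the summed alpha level had nearly the same mean in the 3 groups. Summed over the 5 alpha genes, the level was 112 ± 24.4 CPM in NCT, 117 ± 27.1 CPM in NT and 116 ± 20.1 CPM in PL (SD, n = 9 each). Of the alpha counts, Lama5 made up 23.9 ± 7.27% in NCT, 29.1 ± 6.32% in NT and 46.2 ± 11.1% in PL. Its share was 27.4 to 61.7% in PL and 13.3 to 35.7% in NCT, and the ranges overlapped. Lama2 made up 25.4 ± 3.41%, 18.2 ± 5.15% and 12.5 ± 4.98%, and Lama3 28.0 ± 11.2%, 30.3 ± 8.05% and 21.4 ± 10.3%. Lama4 made up 22.3 ± 9.10%, 21.5 ± 10.6% and 19.7 ± 7.46%.

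The shares of the beta chains overlapped in all 3 groups. Lamb1 made up 51.1 ± 5.42% of the beta counts of NCT, 40.4 ± 5.96% in NT and 45.1 ± 12.9% in PL, Lamb2 22.6 ± 4.28%, 26.2 ± 3.21% and 25.8 ± 9.99%, and Lamb3 26.3 ± 4.65%, 33.4 ± 6.08% and 29.1 ± 7.42%. The 9 chains together summed to 413 ± 49.0 CPM in NCT, 402 ± 42.9 CPM in NT and 426 ± 66.8 CPM in PL. Shares describe the libraries and were not tested. Counts of 3′ transcript ends are not scaled for length, and a share was compared only with the share of the same chain in other groups. Without the libraries rich in Pth or Lipf, the mean Lama5 share was 24.6%, 29.5% and 45.9%.

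**Figure D4:**
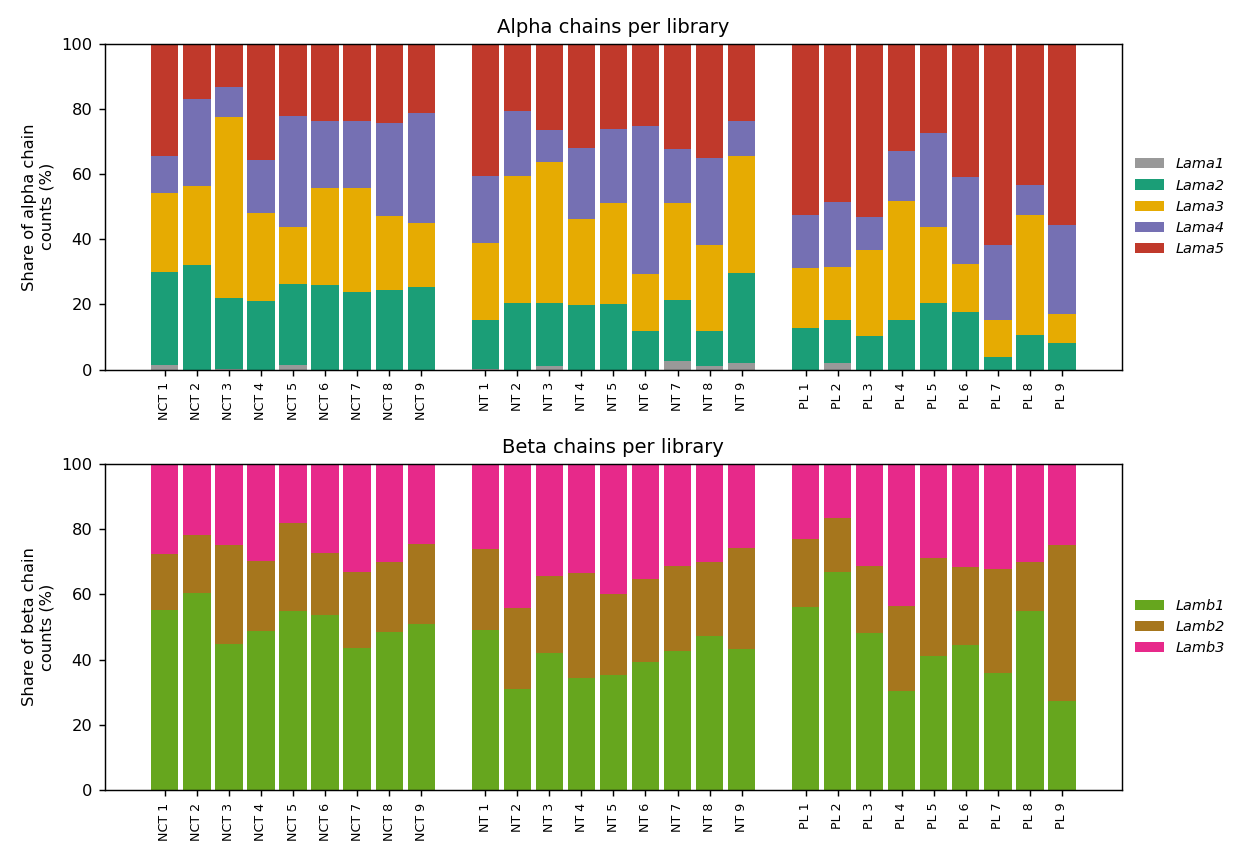
Share of each alpha chain among alpha chain counts (upper) and of each beta chain among beta chain counts (lower), in percent (vertical axis, from 0 to 100), for each of the 27 libraries; colours are genes. The Lama5 share is highest in PL 7, at 61.7%, and lowest among lesions in PL 5, at 27.4%.

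Whether chains moved together from mouse to mouse was asked of the log2 differences between PL and NT, over the 28 pairs of tested chains and 9 mice. No pair passed after Benjamini-Hochberg adjustment of exact two-sided permutation p-values. Lama5 and Lamc1 had r = 0.87 (exact p = 0.0062, adjusted p = 0.0578) and rho = 0.62 (exact p = 0.0857, adjusted p = 0.480). Without mice 1 and 5 r was 0.45, so its size depended on those mice. For each pair, the 2 mice left out were those farthest from the median of the first chain. This narrows the range of that chain, which by itself can lower r. Lama2 and Lama3 had r = 0.86 (exact p = 0.0038, adjusted p = 0.0529) and rho = 0.87 (exact p = 0.0045, adjusted p = 0.126), with r = 0.77 without mice 7 and 9. Lama2 and Lama4 had r = -0.86 (exact p = 0.0036, adjusted p = 0.0529) and rho = -0.82 (exact p = 0.0108, adjusted p = 0.151), with r = -0.61 without those mice. In all 9 mice Lama2 and Lama3 had differences of the same sign. Both were lower in the lesions of mice 1, 2, 3, 5, 7 and 9 and higher in those of mice 4, 6 and 8. In mouse 4 Lama2 differed by only 0.02, from 22.1 to 22.5 CPM, too little to give a direction. This pair was singled out from the 28 for its high r.

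The PL against NT difference was also set against sex, with 6 female and 3 male pairs. The mean log2 difference of Lama5 was 0.53 in females and 0.87 in males, that of Lamc1 0.63 and 0.69, and that of Lama2 -0.50 and -0.83. The interaction term of edgeR, with an adjusted p (Benjamini-Hochberg) of 0.9998 for each of the 8 chains, called 0 of 14461 genes. For Lama5 it was 0.34 ± 0.32 (SE, males minus females, unadjusted p = 0.304), the smallest unadjusted p of the 8.

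Laminins work with other basement membrane genes, and these were read from lists of partners. Beside the counts below, 3.08% of all genes were called in PL against NT, 1.76% higher and 1.31% lower. In PL against NCT 10.1% were called, 5.46% higher and 4.62% lower. The lists are short, and no comparison of a list with all genes was made. Lamc3, another gamma chain, was below 6 CPM in every library and was not tested.

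Among the 16 basement membrane partners, 15 were tested in PL against NT, and 0 were called higher and 2 lower. Agrn, agrin, a heparan sulfate proteoglycan that binds laminin and dystroglycan, fell by 0.62 on the log2 scale (SE 0.15, adjusted p = 0.0343), from 110 ± 23.3 to 71.9 ± 17.9 CPM. In NCT it was at 72.3 ± 13.6 CPM, so NT was the highest of the 3 groups, although NT against NCT was not called (0.59, adjusted p = 0.0905). Col4a4, a chain of the collagen IV network of mature basement membranes, fell by 0.50 (SE 0.12, adjusted p = 0.0352). In PL against NCT, 3 of 16 were higher and 2 lower. Col4a4 fell by 0.83 (adjusted p = 0.000638), while Col18a1 and Col4a1, chains of a basement membrane collagen with heparan sulfate and of the common collagen IV network, rose by 0.62 (adjusted p = 0.0044) and 0.51 (adjusted p = 0.0086). The remaining calls were Nid2, nidogen, which links laminin to collagen IV, at 0.91 (adjusted p = 0.0159), and Col15a1 at -0.43 (adjusted p = 0.0452), both named after their values were seen.

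Of 7 integrin receptor chains, 0 were called in PL against NT. The smallest p was that of Itga6, the alpha chain of the main epithelial laminin receptors, at 0.39 ± 0.10 (SE, adjusted p = 0.0583), with 136 ± 12.4 CPM in NT and 179 ± 31.8 CPM in PL. Of these, 3 were higher and 0 lower in PL against NCT. Itga3, which binds the laminins of Lama5 and Lama3, rose by 1.33 ± 0.22 (SE, adjusted p = 0.000388), from 26.7 ± 8.68 CPM in NCT to 68.2 ± 25.9 CPM in PL. Itga2 and Itga1, receptors of collagen and laminin, rose by 2.36 (adjusted p = 0.0124) and 0.40 (adjusted p = 0.0113), Itga2 from a mean of 1.01 CPM near the detection floor.

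Of 16 other receptors and enzymes that build the laminin-binding sugar of dystroglycan, 15 were tested. Dag1, dystroglycan itself, was called higher in PL against NT by 0.59 ± 0.15 (SE, adjusted p = 0.0436), with 393 ± 97.2 CPM in NT and 606 ± 190 CPM in PL, and by 0.78 in PL against NCT (adjusted p = 0.0048). In PL against NCT, Sdc4, a syndecan co-receptor, rose by 1.51 (adjusted p = 0.000823), and Utrn, utrophin, which ties dystroglycan to the cell skeleton, fell by 0.59 (adjusted p = 0.000948). In all, 1 of 15 was higher and 0 lower in PL against NT, and 2 were higher and 1 lower in PL against NCT. None of the enzymes was called in either comparison.

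The 3 partner calls within mice were as close to the threshold as that of Lama5. Agrn was called in 11 of 18 alternatives, Col4a4 in 8 and Dag1 in 7. None of the 3 was called in females only (adjusted p = 0.333, 0.252 and 0.319) or without the mice with a library rich in Pth (0.174, 0.233 and 0.262), and Col4a4 and Dag1 were not called without the pairing by mouse (adjusted p = 0.0686 for each). Agrn was lost without mouse 2, 3, 4, 8 or 9, Col4a4 without mouse 1, 2, 3, 4, 7, 8 or 9, and Dag1 without any mouse but mouse 5. In PL against NCT, Col4a4, Itga3, Sdc4 and Utrn were called in all 28 alternatives, Col4a1, Dag1, Itga2 and Nid2 in 27, Col18a1 and Itga1 in 26 and Col15a1 in 12. These alternatives were added after the data were seen.

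In the remaining lists nothing was called. Of the hemidesmosome and integrin partners, 6 of 7 were tested, and the smallest p in PL against NT was that of Ilk, a kinase at integrin tails (-0.43, adjusted p = 0.143), and in PL against NCT that of Dst, a hemidesmosome linker (-0.60, adjusted p = 0.101). Of the netrins, laminin-related proteins, only Ntn4 of 5 was tested, at -0.81 ± 0.24 (SE, adjusted p = 0.0824) in PL against NT and -0.64 (adjusted p = 0.115) in PL against NCT. Of the proteases of laminins and basement membrane, 7 of 10 were tested in PL against NT and 8 in the other comparisons, led by Mmp2, gelatinase A, at -1.08 (adjusted p = 0.0609) in PL against NT and by Bmp1, a processing enzyme, at -0.68 (adjusted p = 0.0840) in PL against NCT. In NT against NCT no partner described here was called. Within the lists described here, the smallest p there were those of Agrn, of Parva, an integrin adaptor (0.36, adjusted p = 0.156), Sdc4 (0.38, adjusted p = 0.205), Itga3 (0.63, adjusted p = 0.317), Prss23, a secreted protease (0.34, adjusted p = 0.427), and Ntn4 (0.06, adjusted p = 0.933).

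**Figure D5:**
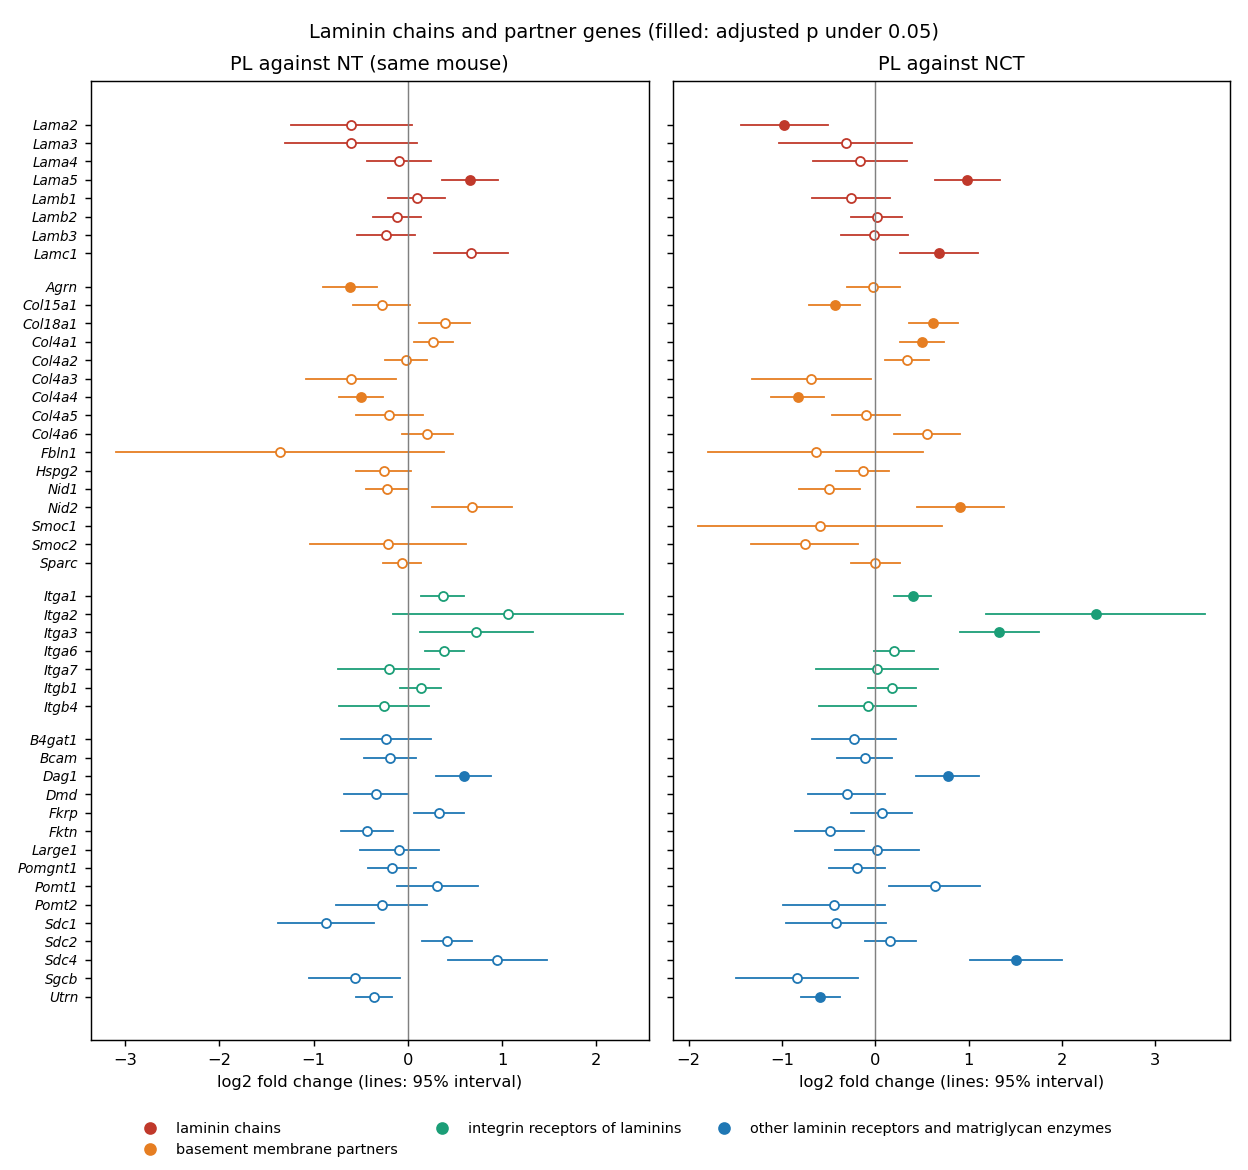
Fitted log2 fold change (horizontal axis) of the tested laminin chains and their partner genes in PL against NT of the same mouse (left) and PL against NCT (right); lines are 95% intervals, colours are gene lists and filled points have an adjusted p under 0.05. On the left Lama5, Agrn, Col4a4 and Dag1 are filled, and on the right 3 laminin chains and 11 partners are.

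The genes most like each chain were found over the 27 libraries by Pearson r of log2 CPM after centring each group on its mean, among 8708 genes with a mean of at least 10 CPM. For Lama5 they were Bcar1, a docking protein of integrin signalling (r = 0.76), and Slc35c1, a Golgi GDP-fucose transporter (0.74). For Lamc1 they were Helz2 (0.83) and Igf2r, a sorting receptor (0.82). For Lama2 they were Abca8a (0.84) and Fbln5, an elastic fibre protein (0.81), and for Lama3 Efemp1, a related fibulin (0.79), and Ppp4r2 (0.76). For Lama4 they were Polr3a (0.77) and Gpbp1l1 (0.74), for Lamb1 Ubl5 (0.87) and Scube2 (0.85), for Lamb2 Ppp2r2d and Pik3cb (0.69 each), and for Lamb3 Krt8, a simple epithelial keratin, and Grn (0.70 each). Libraries share their depth and makeup, so these values are descriptions.

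Against the summed cell type markers, measured the same way, the chains differed. With Tg, which makes up most of the summed follicular level, Lamb1 had r = 0.52, Lama5 -0.15 and Lamc1 -0.44. With the sum of the other 7 follicular genes Lamb1 had 0.24, Lama5 0.06, Lamc1 -0.03 and Lama2 -0.54. Lamb2 had 0.52 and Lama4 0.43 with the 10 endothelial genes. Lama3 had 0.52 with the 8 fibroblast genes, below the 0.83 of Lama2, and Lama2 had 0.62 with the 9 pericyte and smooth muscle genes. Across the chains themselves, Lama2 and Lama3 had r = 0.68, Lama5 and Lamc1 0.57, and Lama3 and Lama4 -0.36 over the 27 libraries. Lama2 and Lama4, at r = -0.86 in the within-mouse differences, had r = 0.00077 here.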

How the data were processed

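RNA was measured in 27 libraries of laser-captured mouse thyroid with the QuantSeq 3′ kit, per the labels' protocols. The authors deposited raw read counts per gene. STAR, featureCounts, DESeq2 and GRCm38 are named without versions, per the submitters' processing notes; the strand setting and annotation were not stated in the sources used here. Identifiers were matched to GENCODE M21 symbols for 54409 of 54532 rows, and the other 123 rows held 0.0251% of counts. Genes with near-identical copies can share reads.

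Genes were kept by filterByExpr (minimum count 10), scaled by TMM and tested in edgeR 4.0.16 (R 4.3.3) by its quasi-likelihood F test, with Benjamini-Hochberg adjustment over all genes tested and a threshold of 0.05. PL against NT had mouse as a block, which came from the mouse numbers in the labels. Deviations from group means correlated at -0.0162 to 0.212 within the 9 pairs, 5 of them above 0.1. The mean r was 0.13 within pairs and -0.016 between PL and NT libraries of different mice. The other comparisons had no covariate, and each fit held only the groups compared. A standard error is the size of the log2 fold change over the root of the F statistic, and 95% intervals use the normal quantile. No pair of libraries in a group matched within sampling noise (108 pairs, lowest chi-square per degree of freedom 13.2).

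Named genes were the 9 chains, up to 3 called members of each partner list by smallest p, or the member with the smallest p where none was called, and the 2 genes most like each chain. Some genes of the partner and marker lists are not reported here. The members, lists and tests were chosen with earlier results of these data known. Besides the lists with values in the text, marker lists covered adipocytes (7 of 8 tested, 0 called in PL against NT), macrophages (1 of 5 called lower), pericytes and smooth muscle (1 of 9 lower), the thyroid follicle (1 of 8 higher) and parathyroid (1 of 3 tested, 0 called).

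The script was tested on simulated counts. Each size of change was given to a different set of 50 genes of any level, and the sets followed the order of the gene rows. In PL against NT (14043 genes) it recovered 14% of 1.5-fold, 56% of 2-fold and 92% of 4-fold changes, in NT against NCT (14219 genes) 34%, 46% and 92%, and in PL against NCT (13958 genes) 20%, 46% and 86%. Alternatives were other scalings and filters, DESeq2 1.42.0, limma-voom 3.58.1, females only, libraries left out, sex as a covariate and no block.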

Additional observations from a re-analysis of the deposited data

Results flagged for a closer look

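Dixon's test at the 95% level was applied to 36 groups of 9 values. These were the level of each of 9 chains in each of 3 groups, and the PL minus NT differences. In 4, the gap of the lowest or highest value to its neighbour was too large a part of the whole range. For normally distributed values chance gives about 1 group in 20, a rate that does not hold for counts near 0. Lama1 in PL was at 2.04 CPM in PL 2 and at 0 in the other 8 lesions. With 8 values at 0, any count in the last library gives this flag, so nothing is read from it. Lama2 in NCT was at 42.4 CPM in NCT 6, with 31.3 CPM the next. The within-mouse difference of Lamb3 was -1.55 on the log2 scale in mouse 2, whose PL library was rich in Pth, with -0.38 the next lowest. The within-mouse difference of Lamc1 was -0.94 in mouse 5, with 0.41 the next lowest, and the adjusted p of Lamc1 in PL against NT was 0.0875 with this mouse and 0.00837 without it (edgeR, Benjamini-Hochberg).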

How the results depend on the processing

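Lama5 in PL against NCT kept its call and its direction in 28 of 28 alternatives, and in PL against NT its direction in 18 of 18 and its call in 9. Without the replicate block, the fit of PL against NT called 402 genes and 1 chain, Lama5 at 0.66 (adjusted p = 0.0252), and the block changed no call among the chains, nor among the sex interactions (0 chains called). For PL against NT the genes called numbered 832 without a filter on low counts, 1285 by the DESeq2 Wald test, 6 in females only and 93 without the libraries rich in Pth or Lipf, against 445, and 137 to 529 with 1 mouse left out (209 without mouse 3, 234 without mouse 7, 240 without mouse 4, 257 without mouse 2, 137 without mouse 8). The chains called higher were 2 by the Wald test, 0 in females only, 0 without the Pth-rich mice, and 0 to 2 with 1 mouse left out. The share of calls that were higher was 57.3% and became 46.2% by the Wald test, 100% in females only and 84.9% without the Pth-rich mice.

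For NT against NCT the genes called numbered 15 without a filter, 134 by the Wald test, 1 in females only and 1 without the libraries rich in Pth or Lipf, against 4, and 0 to 12 with 1 library left out (12 without NCT 7, 9 without NCT 8, 1 without NT 2, 0 without NT 4 or NT 6). The share higher was 25% and became 0% with upper-quartile factors. For PL against NCT they numbered 465 in females only and 797 without those libraries, against 1434, and 1128 to 1653 with 1 library left out. The chains called higher there were 1 under limma-voom, 1 in females only, 1 without those libraries and 1 to 2 with 1 library left out, and the chains called lower were 0 in females only.

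Directions turned only for the following values, none of which was called. In NT against NCT, Lamc1 became 0.0114 under limma-voom and 0.0509 in females only (-0.0847 to 0.0580 with 1 library left out), Lama4 0.32 both in females only and without the libraries rich in Pth or Lipf (-0.195 to 0.0371), and Lama3 -0.13 without those libraries. In PL against NCT, Lamb3 became 0.0120 without a filter, 0.0191 under limma-voom, 0.17 in females only, 0.0325 without those libraries and 0.0040 with all 27 libraries fitted (-0.0907 to 0.0651), Lama4 0.20 in females only and 0.14 without those libraries, and Lamb2 ranged from -0.0614 to 0.0755. In PL against NT, Lamb1 ranged from -0.0152 to 0.206 and Lama4 from -0.212 to 0.0097 with 1 mouse left out. Fits without some libraries hold fewer samples; the cause of the other changes was not tested. At 1.5-fold, near the 1.58-fold change of Lama5 within mice, the simulated recovery was 14%. That share is over 50 genes of any level and was not taken for genes at the level of Lama5. The 95% intervals of Lama4, Lamb1, Lamb2 and Lamb3 in PL against NT excluded a change of that size in either direction, and those of Lama2, Lama3 and Lamc1 did not.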
